A study of Mus musculus with 5 samples.

Results

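The genes described here are 10 components and regulators of goblet cell mucus, Muc2, Fcgbp, Clca1, Zg16, Tff3, Spink4, Agr2, Capn9, Atoh1 and Spdef. They were chosen by gene symbol, with earlier results of these data known, and are 10 of 55471 genes in the files. Every library came from the colon of a C57BL/6 male aged 11 weeks, sampled 3 days after TNBS, a hapten that inflames the colon when it is instilled there. The groups were propyzamide with TNBS (3 libraries) and vehicle with TNBS (2 libraries). Propyzamide is a herbicide that acts on plant microtubules, and the single comparison of the design was propyzamide against vehicle under colitis. Colon without TNBS was not analysed here. Neither dose nor colon segment is given in the sources used here. Libraries were made from frozen pieces of colon by SMART-seq2, an amplification of whole cDNA. Each label names a treated mouse without stating that all were separate animals, so p-values measure only the spread between these samples.

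Goblet cells fill apical granules with the gel-forming mucin Muc2 and release it to form the mucus that keeps colonic bacteria away from the epithelium. Other proteins are packed with the mucin, bind to it or cut it after release. Atoh1 commits crypt cells to the secretory lineage by binding E-box motifs as a basic helix-loop-helix factor, and Spdef acts after it in goblet cell maturation. In RNA from a whole piece of colon, fewer goblet cells and less mucus RNA per goblet cell cannot be told apart.

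Promoter windows are shown because all members were lowest in the same library and because Atoh1, a member itself, binds E-boxes. The RefSeq promoter table (build GRCm38.p6, 250 bases before to 50 after the start site) held windows for 6 members, Muc2, Fcgbp, Agr2, Spdef, Atoh1 and Capn9. The secreted products Muc2 and Fcgbp are set beside the regulators Atoh1 and Spdef, and capitals mark the E-box CAGCTG. The windows are chr7:141690090-141690389 (plus strand) for Muc2, chr7:28070986-28071285 (plus strand) for Fcgbp, chr6:64728875-64729174 (plus strand) for Atoh1 and chr17:27728902-27729201 (minus strand) for Spdef.
Muc2: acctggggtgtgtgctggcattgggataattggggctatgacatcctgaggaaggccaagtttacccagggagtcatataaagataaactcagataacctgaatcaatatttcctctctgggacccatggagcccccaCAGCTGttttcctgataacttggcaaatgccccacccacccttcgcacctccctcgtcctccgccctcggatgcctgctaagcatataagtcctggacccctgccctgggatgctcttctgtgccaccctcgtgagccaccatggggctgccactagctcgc
Fcgbp: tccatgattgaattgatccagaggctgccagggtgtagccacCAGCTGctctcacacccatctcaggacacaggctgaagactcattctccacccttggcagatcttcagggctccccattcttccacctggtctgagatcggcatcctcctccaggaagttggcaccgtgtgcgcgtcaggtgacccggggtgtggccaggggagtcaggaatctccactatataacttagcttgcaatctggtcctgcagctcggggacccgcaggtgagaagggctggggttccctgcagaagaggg
Atoh1: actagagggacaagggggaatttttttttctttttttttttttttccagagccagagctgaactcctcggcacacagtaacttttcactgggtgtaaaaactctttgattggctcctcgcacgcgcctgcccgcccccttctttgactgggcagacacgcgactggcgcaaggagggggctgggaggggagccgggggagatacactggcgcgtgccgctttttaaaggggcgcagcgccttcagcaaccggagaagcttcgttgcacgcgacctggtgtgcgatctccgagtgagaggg
Spdef: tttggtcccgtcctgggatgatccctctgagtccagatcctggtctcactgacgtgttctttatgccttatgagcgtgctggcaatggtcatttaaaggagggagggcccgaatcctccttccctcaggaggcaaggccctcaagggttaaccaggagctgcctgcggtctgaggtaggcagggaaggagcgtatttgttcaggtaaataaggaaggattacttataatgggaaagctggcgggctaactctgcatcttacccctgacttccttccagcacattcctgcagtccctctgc
CAGCTG, which reads the same on both strands, lay 112 bases upstream of the start site of Muc2 and 208 bases upstream of that of Fcgbp, so 2 of the 6 windows held it. It was in 16.3% of all 32851 promoter windows of this length. CAGATG, searched on both strands, was in 0 of the 6 windows and in 17.2% of all windows. The general E-box CANNTG, of which both are forms, was in 3 of the 6 and in 72.3% of all. TATAAA, searched on the strand of the gene, was in the Muc2 window only among the 6 and in 8.32% of all. These matches describe letters in the windows and do not show that a factor was bound.

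All 10 genes had counts in all 5 libraries and passed the filter on low counts. Total estimated counts were 2706885, 2441897 and 1882235 in the propyzamide libraries and 1573700 and 2258237 in the vehicle libraries. Ribosomal-RNA-like loci took 26.3% to 43.6% of them and mitochondrial genes 9.999% to 21.6%. Olfactory and vomeronasal receptor genes, used as a gauge of reads unrelated to expression, had a count for 186, 701 and 274 of 1464 genes in propyzamide and for 1131 and 890 in vehicle. The counts such reads would give a member of its length were at most 2.53. In propyzamide replicate 2 they were 1.29 for Atoh1, which had 2 counts, and 1.05 for Capn9, which had 4, the values nearest to that level.

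By level per transcript length (TPM, the authors' values summed over each gene's transcripts), Zg16, Muc2 and Spink4 were the top 3 members in each of the 5 libraries. Zg16 led in the 3 propyzamide libraries and in vehicle replicate 2, and Muc2 led in vehicle replicate 1, where Spink4 came before Zg16. Zg16 had 3690, 264 and 2143 TPM in propyzamide and 4282 and 876 TPM in vehicle. Muc2 had 3480, 169 and 1438 TPM in propyzamide and 5425 and 811 TPM in vehicle. Muc2 is annotated only as 8 partial models, so its summed TPM may count the same transcript more than once, and its places in this order are uncertain. In vehicle replicate 1 its highest single model, Muc2-208, had 1354 TPM, below the 5295 TPM of Spink4 and the 4282 TPM of Zg16. In every library Spink4 exceeded Agr2, Fcgbp exceeded Clca1, and Clca1 exceeded Spdef, Atoh1 and Capn9, the 3 lowest members. The place of Fcgbp is uncertain too, since short models carry most of its TPM. Its full-length models Fcgbp-201 and Fcgbp-203 had 154 and 0 TPM in vehicle replicate 1, and 27.1 and 0 in vehicle replicate 2. In propyzamide they had 3.52 and 28.4, 0.07 and 0.34, and 2.96 and 14.4 TPM. Clca1-201, the longest Clca1 model, was above them, at 767 and 99.4 TPM in vehicle and 60.9, 5.11 and 30.8 TPM in propyzamide. Zg16 and Muc2, Agr2 and Tff3, Tff3 and Fcgbp, Spdef and Atoh1, and Atoh1 and Capn9 changed places between libraries, so these neighbours did not differ beyond their spread. Spdef averaged 10.01 ± 6.35 TPM in propyzamide (SD, n = 3) and 22.0 ± 22.3 TPM in vehicle (SD, n = 2). Capn9 averaged 3.31 ± 1.96 TPM in propyzamide (SD, n = 3) and 4.20 ± 3.41 TPM in vehicle (SD, n = 2). In propyzamide replicates 1 and 2 its 274-base model Capn9-203 gave 3.23 and 2.41 TPM from 1 and 0.72 counts.

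**Figure D1:**
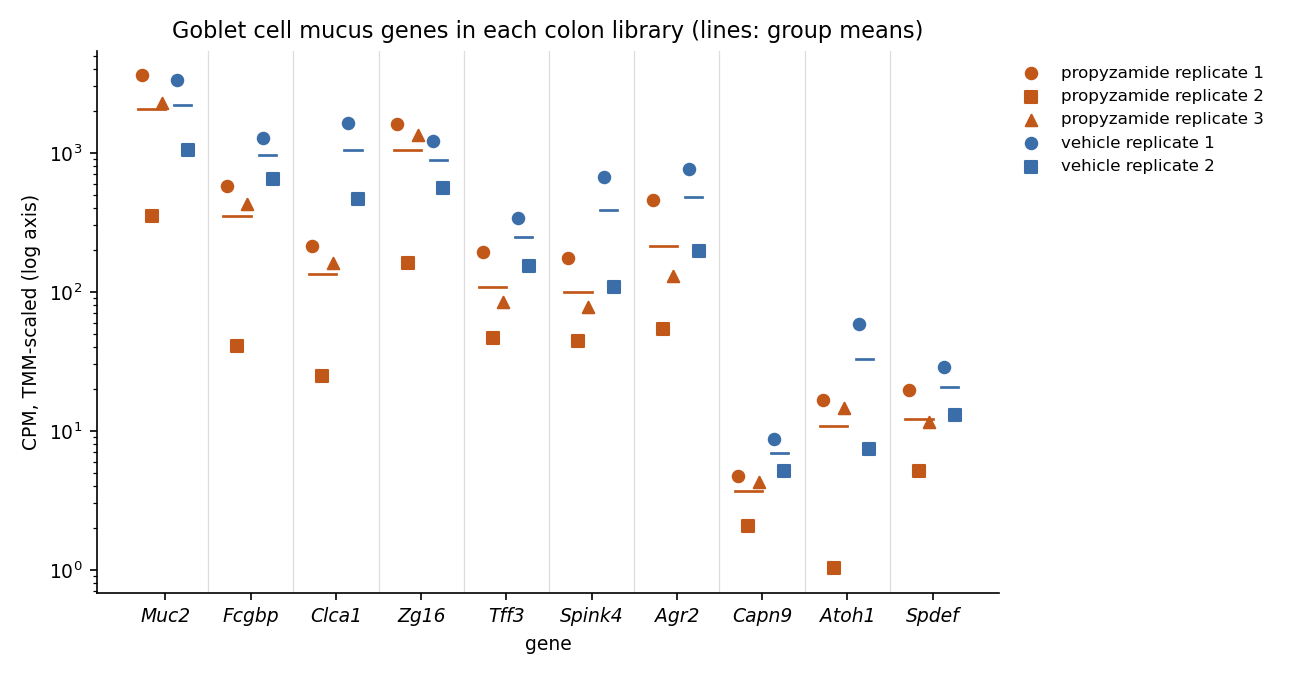
TMM-scaled CPM (log axis) of the 10 genes in the 3 propyzamide and 2 vehicle libraries, with a line at each group mean. Propyzamide replicate 2 (orange square) is the lowest point of every gene, and vehicle replicate 1 (blue circle) is the highest for all but Muc2 and Zg16.

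The genes varied together from library to library, in both groups. All 10 were lowest in propyzamide replicate 2, as were 25.2% of all 12024 genes tested. Vehicle replicate 1 was the highest library for 8 of the 10, and for 20.2% of all genes tested, while Muc2 and Zg16 were highest in propyzamide replicate 1. Their summed level was 6884, 728 and 4538 CPM (library-scaled counts by TMM, not divided by length) in propyzamide and 9344 and 3196 CPM in vehicle, so the groups overlapped. Within propyzamide, replicate 1 exceeded replicate 2 by 2.32-fold (Capn9) to 16.2-fold (Atoh1), with a median of 8.61-fold. Within vehicle, replicate 1 exceeded replicate 2 by 1.70-fold (Capn9) to 7.96-fold (Atoh1), with a median of 2.71-fold.

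None of the 10 genes passed the edgeR quasi-likelihood test after Benjamini-Hochberg adjustment over all 12024 genes, where 229 genes passed (1.90%). An unadjusted p under 0.05 was reached by 3 of the 10 (Clca1, Spink4 and Tff3) and by 18.2% of all genes, and DESeq2 called 0 of the 10, among 565 calls (4.70%). Log2 fold changes of propyzamide over vehicle were negative for 9 genes and positive for 1, with a median of -1.17, against -0.02 over all genes tested. In simulated libraries of this size and number, the same test recovered 91.8% of tested genes changed 8-fold, 55% of those changed 4-fold and 5.66% of those changed 2-fold. Of 12024 genes simulated, 10657 passed the filter and were tested, so changed genes that failed it are not in these shares. Each gene was drawn there independently, with the spread typical of its level. The simulation lacked the wide shared swings of these members between libraries, so its rates may not hold for them. The groups did not overlap in CPM for 3 genes, Fcgbp, Clca1 and Capn9, each lower in propyzamide, which was also so of 20.8% of all genes tested. No member was higher in propyzamide without overlap, as 16.7% of all genes were.

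**Figure D2:**
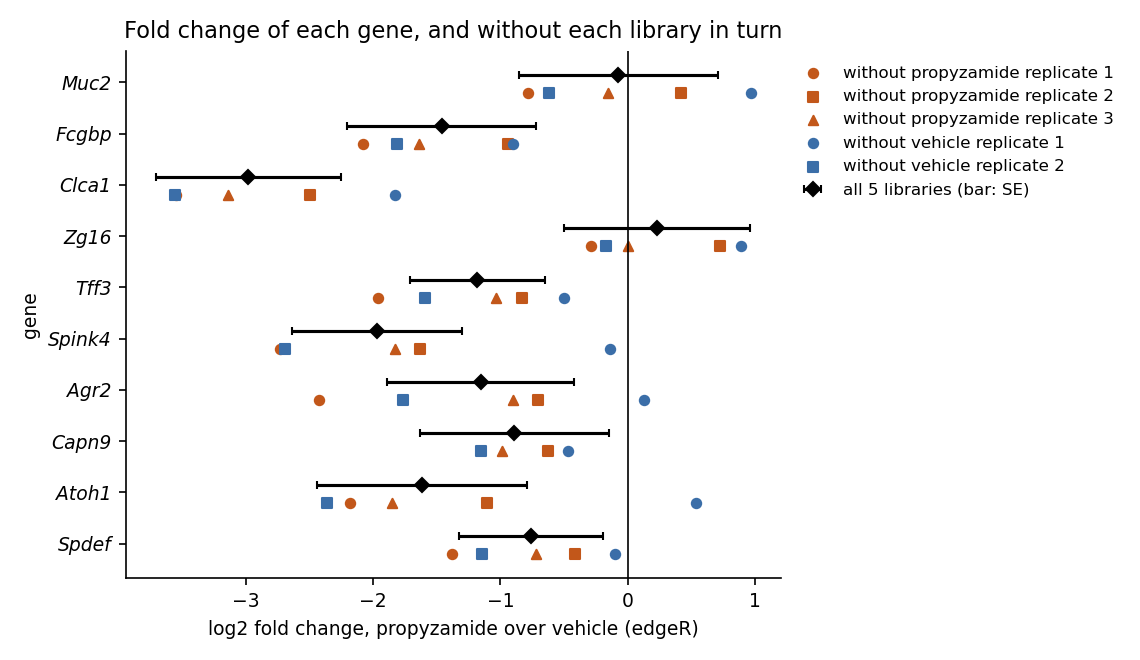
Log2 fold change of propyzamide over vehicle for each gene from all 5 libraries (black diamonds, bars ± SE, edgeR) and from the fits that leave out 1 library each (orange, a propyzamide library left out; blue, a vehicle library left out). Clca1 stays below -1.8 in each, while Muc2 lies between -0.78 and 0.97 and Zg16 between -0.29 and 0.89.

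Muc2 (chr7:141690340-141754693, plus strand, GRCm38), the mucin that forms the gel, had 3603, 349 and 2283 CPM in propyzamide and 3333 and 1050 CPM in vehicle. The propyzamide values lay on both sides of both vehicle values. The log2 fold change was -0.08 ± 0.78 (SE, adjusted p = 0.973, edgeR quasi-likelihood). Zg16 (chr7:127050156-127087328, minus strand), a secreted lectin that binds Gram-positive bacteria in mucus, had 1620, 160 and 1340 CPM in propyzamide and 1222 and 555 CPM in vehicle. Again the propyzamide libraries took both the highest and the lowest places. Its log2 fold change was 0.23 ± 0.73 (SE, adjusted p = 0.913, edgeR quasi-likelihood). For both genes the spread within each group exceeded the difference between the group means.

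Clca1 (chr3:145003817-145032776, minus strand), a secreted metalloprotease that cuts Muc2, had 214, 24.6 and 161 CPM in propyzamide and 1634 and 468 CPM in vehicle. Every propyzamide library was below both vehicle libraries. Its log2 fold change was the most negative of the 10, -2.98 ± 0.73 (SE, unadjusted p = 0.00136, adjusted p = 0.0521, edgeR quasi-likelihood), just outside the threshold of 0.05. With library size set by the summed count of 13 pan-epithelial markers in place of TMM, it was -3.06 with an adjusted p of 0.0215. With an offset for the average transcript length in each library it was -1.56 (adjusted p = 0.232, edgeR quasi-likelihood), and with limma on log2(TPM + 1) it was -2.23 (adjusted p = 0.306). Under the epithelial scaling 3.21% of all genes were called, and Clca1 was the only member among them. It was not called under that scaling without vehicle replicate 1 (-2.08) or without propyzamide replicate 3 (-3.39). Under TMM it was called without propyzamide replicate 1, at -3.55, where 4.47% of genes were called. It was not called on leaving out any of the other 4 libraries, where it ranged from -3.55 to -1.83.

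Fcgbp (chr7:28071236-28120862, plus strand), a large mucus protein with repeated von Willebrand D domains that is bound to Muc2, had 576, 41.1 and 430 CPM in propyzamide and 1279 and 642 CPM in vehicle. All propyzamide values were below both vehicle values. The log2 fold change was -1.46 ± 0.74 (SE, adjusted p = 0.326, edgeR quasi-likelihood). Tff3 (chr17:31125306-31129646, minus strand), a small trefoil peptide that takes part in epithelial repair, had 194, 46.7 and 84.6 CPM in propyzamide and 342 and 152 CPM in vehicle. Propyzamide replicate 1 lay above vehicle replicate 2, so the groups overlapped. Its log2 fold change was -1.18 ± 0.53 (SE, adjusted p = 0.261, edgeR quasi-likelihood).

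Spink4 (chr4:40920052-40931395, plus strand), a secreted peptide with a Kazal-type protease inhibitor domain, had 176, 44.1 and 77.9 CPM in propyzamide and 672 and 108 CPM in vehicle. Vehicle replicate 1 stood well above the other 4 libraries, and propyzamide replicate 1 lay above vehicle replicate 2. The log2 fold change was -1.97 ± 0.66 (SE, adjusted p = 0.141, edgeR quasi-likelihood), and without vehicle replicate 1 it was -0.14. Agr2 (chr12:35992907-36004087, plus strand), a protein disulfide isomerase of the endoplasmic reticulum needed for mucin production, had 461, 53.9 and 131 CPM in propyzamide and 766 and 195 CPM in vehicle. The groups overlapped through propyzamide replicate 1. The log2 fold change was -1.15 ± 0.73 (SE, adjusted p = 0.443, edgeR quasi-likelihood), and without vehicle replicate 1 it was 0.13. Capn9 (chr8:124576111-124618731, plus strand), a calcium-dependent cysteine protease of the digestive tract, had only 14, 4 and 7 counts in propyzamide and 21 and 9 in vehicle. These were 4.76, 2.05 and 4.26 CPM in propyzamide and 8.69 and 5.11 CPM in vehicle, with no overlap and a log2 fold change of -0.89 ± 0.74 (SE, adjusted p = 0.578, edgeR quasi-likelihood).

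Of the regulators, Atoh1 (chr6:64729125-64731245, plus strand) had 49, 2 and 24 counts in propyzamide and 142 and 13 in vehicle. In CPM these were 16.7, 1.03 and 14.6 in propyzamide and 58.7 and 7.38 in vehicle. The propyzamide values lay on both sides of vehicle replicate 2, and Atoh1 had the widest spread within groups of all 10. Its log2 fold change was -1.61 ± 0.82 (SE, adjusted p = 0.329, edgeR quasi-likelihood), and it turned to 0.53 without vehicle replicate 1. Spdef (chr17:27714352-27728955, minus strand) had 19.7, 5.13 and 11.6 CPM in propyzamide and 28.5 and 13.1 CPM in vehicle. The groups overlapped through propyzamide replicate 1, and the log2 fold change was -0.76 ± 0.57 (SE, adjusted p = 0.532, edgeR quasi-likelihood).

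Because all members were lowest in the same library, each was also set against Muc2 in the same library. Per 100 Muc2 counts there were 5.93, 7.06 and 7.07 Clca1 counts in propyzamide and 49.0 and 44.6 in vehicle. The ratio varied little within each group and was 7.02-fold higher in vehicle by geometric means. The exact permutation test, two-sided, gave p = 0.2, the smallest that 2 against 3 libraries allow. Fcgbp had 15.98, 11.8 and 18.8 counts per 100 of Muc2 in propyzamide and 38.4 and 61.2 in vehicle. Agr2 and Atoh1 also did not overlap and were lower in propyzamide, which made 4 of the 9 ratios, against 4.05% of the ratios to Muc2 of all other genes tested. That share is not a like background, because Muc2 itself spanned 10.3-fold within propyzamide and 3.18-fold within vehicle. A gene that does not vary with Muc2 takes on this spread in its ratio, which favours overlap, while the members varied together. Agr2 had 12.8, 15.4 and 5.73 per 100 in propyzamide and 23.0 and 18.6 in vehicle, and Atoh1 had 0.462, 0.294 and 0.640 in propyzamide and 1.76 and 0.703 in vehicle. The other 5 ratios overlapped, among them Zg16 with 44.98, 45.9 and 58.7 per 100 in propyzamide and 36.7 and 52.9 in vehicle. With the Muc2 count as library size, edgeR's quasi-likelihood test called 0 genes, against 229 under TMM, and Clca1 had a log2 fold change of -2.81 (adjusted p = 0.999).

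**Figure D3:**
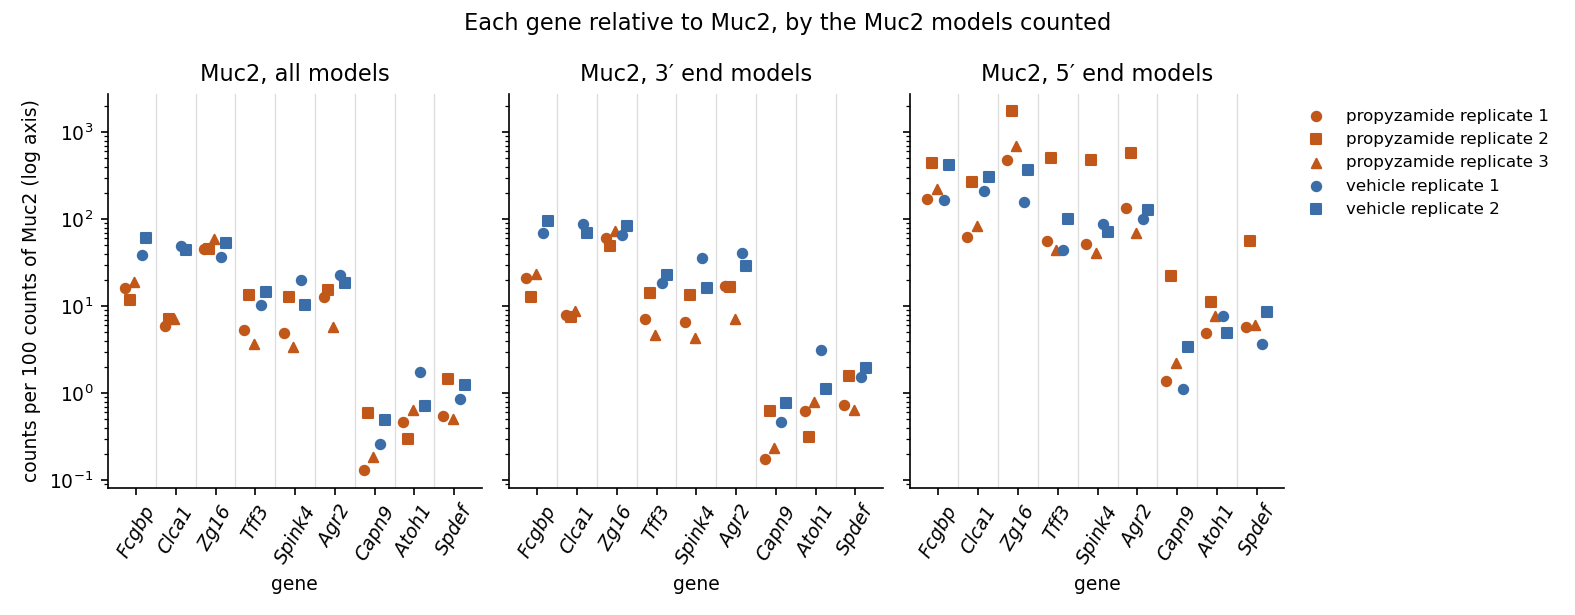
Counts of the other 9 genes per 100 counts of Muc2 (log axis) in each library, with Muc2 counted on all its transcript models (left), on its 3′ end models (middle) and on its 5′ end models (right). On all models the Clca1 ratio is 5.93 to 7.07 in propyzamide and 44.6 to 49.0 in vehicle; on the 5′ end models the groups overlap.

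These ratios depended on which end of Muc2 was counted. The annotation (GENCODE M21) holds no single full-length Muc2 model, only 8 partial ones. The models Muc2-204 and Muc2-203 cover the 5′ end (141690340 to 141698782), and Muc2-207 and Muc2-201 cover the 3′ end (141744612 to 141754693). The 5′ end models took 9.47%, 2.65% and 8.37% of Muc2 counts in propyzamide and 23.1% and 14.5% in vehicle. The 3′ end models took 74.9%, 93.2% and 80.1% in propyzamide and 56.1% and 63.6% in vehicle. Neither share overlapped between the groups, and propyzamide replicate 2, the library lowest in all members, was the most extreme in both.

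Counted on the 5′ end models, Muc2 had 341, 9.24 and 191 CPM in propyzamide and 771 and 152 CPM in vehicle, with a log2 fold change of -1.36 (adjusted p = 0.487, edgeR quasi-likelihood). Counted on the 3′ end models, it had 2698, 325 and 1829 CPM in propyzamide and 1869 and 668 CPM in vehicle, with a log2 fold change of 0.34 (adjusted p = 0.865, edgeR quasi-likelihood). The sign thus differed between the ends, and neither passed the test. Per 100 counts of the 5′ end, Clca1 had 62.6, 267 and 84.4 in propyzamide and 212 and 308 in vehicle, which overlapped. Of the 9 ratios to the 5′ end, 8 overlapped and that of Zg16 was higher in propyzamide, as were 7.76% of such ratios over all other genes tested. Of the 9 to the 3′ end, 6 were lower in propyzamide and 3 overlapped, and over all other genes 6.55% were lower without overlap. These shares over all other genes are again not a like background, since the members varied together with Muc2.

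By the position of the models counted, Muc2 shifted more than most genes compared. On an index of where a gene's counts lay (0 at the 5′ end, 1 at the 3′ end, from the positions of its models), Muc2 had 0.733, 0.883 and 0.774 in propyzamide and 0.574 and 0.642 in vehicle. The mean over 2191 genes with at least 30 counts in every library and models that differ in position (SD over 0.15) was 0.536, 0.551 and 0.540 in propyzamide and 0.526 and 0.532 in vehicle. The median over these genes overlapped, at 0.506, 0.505 and 0.504 in propyzamide and 0.504 and 0.505 in vehicle. The Muc2 difference between group means was 0.189, larger than in 99.8% of these genes. The index can move far only in genes whose models lie apart, as those of Muc2 do. The rank therefore does not show that read coverage shifted more in Muc2 than in other genes. Other members also had a higher index in propyzamide without overlap. Fcgbp had 0.726, 0.873 and 0.731 in propyzamide and 0.655 and 0.704 in vehicle. Spdef, with few counts, had 0.620, 0.646 and 0.821 in propyzamide and 0.536 and 0.499 in vehicle. Zg16 differed only slightly, and Agr2, Spink4 and Capn9 overlapped. RNA quality and alternative ends of transcription were not measured, and their part in the shift was not tested. The choice of regions was made after the shares were seen.

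**Figure D4:**
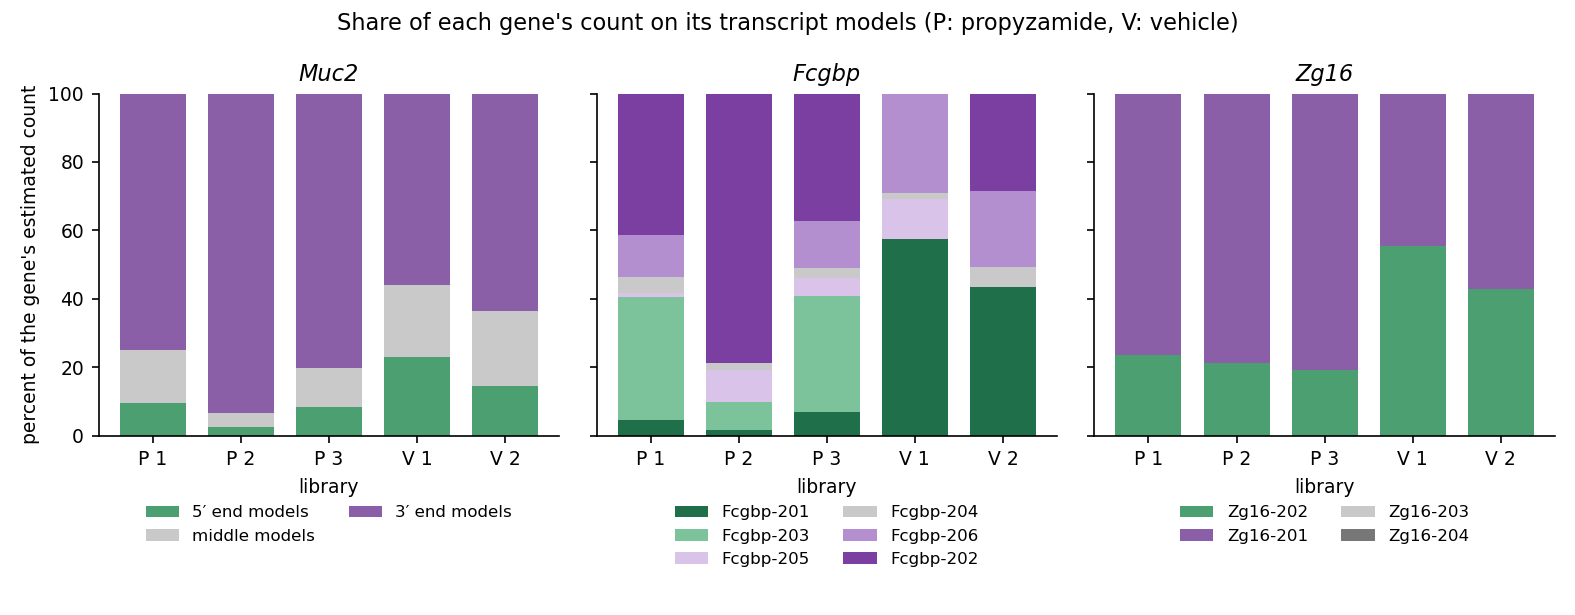
Percent of the estimated counts of Muc2, Fcgbp and Zg16 assigned to each transcript model, or group of models, in the 3 propyzamide (P) and 2 vehicle (V) libraries. The 3′ end models of Muc2 take 74.9% to 93.2% in propyzamide and 56.1% to 63.6% in vehicle, and Fcgbp-203 takes no count in vehicle.

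The counts of Fcgbp were divided among its models differently in the 2 groups, which was not tested. Its full-length model Fcgbp-201 took 4.49%, 1.78% and 6.98% of the gene's counts in propyzamide and 57.5% and 43.3% in vehicle. The other full-length model, Fcgbp-203, took 36.2%, 8.08% and 34.0% in propyzamide and 0% in both vehicle libraries. These models differ at A1601G and G1604A, with the base of Fcgbp-201 given before the position and that of Fcgbp-203 after it, counted from the 5′ end of the transcript. The differences come from the ends of neighbouring exons: 28086720 and 28089592 bound the intron in Fcgbp-201, and 28086724 and 28089596 bound it in Fcgbp-203. Positions 1573 to 1632 of both transcripts (plus strand, GENCODE M21) are shown because so few bases carry the split, with the differing bases in capitals.
Fcgbp-201: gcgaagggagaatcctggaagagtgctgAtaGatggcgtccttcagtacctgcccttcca
Fcgbp-203: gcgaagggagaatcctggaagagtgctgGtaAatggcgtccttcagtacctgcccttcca
The models end 2 bases apart, and only 36 of the 7898 words of 31 bases in Fcgbp-201 were missing from Fcgbp-203, so few reads can tell them apart. Both full-length models together took 40.7%, 9.85% and 41.0% in propyzamide and 57.5% and 43.3% in vehicle. On them the log2 fold change of Fcgbp was -1.87 (adjusted p = 0.307, edgeR quasi-likelihood), and on its 3′ end models -1.11 (adjusted p = 0.390). Fcgbp-201 shares 15.7% of its words with the related gene 9530053A07Rik, so counts of the pair may be divided unevenly.

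Zg16 showed a shift between its models too. Zg16-201 took 76.5%, 78.7% and 80.7% of its counts in propyzamide and 44.6% and 57.3% in vehicle, and Zg16-202 took nearly all the rest. Every 31-base word of Zg16-201 occurs in another model, while Zg16-202 has 41 words of its own. The gene overlaps Gm44939 and Gm22747 on the other strand, and counting by strand is not given in the sources used here. Clca1 had 98.3% of its counts over all libraries on the single 14-exon model Clca1-201, which took 93.8%, 91.3% and 86.8% in propyzamide and 99.9% and 97.9% in vehicle. Its index of position was 0.522, 0.534 and 0.530 in propyzamide and 0.500 and 0.508 in vehicle. Neither the share nor the index overlapped between the groups. Tff3 and Atoh1 have 1 model each.

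Other products of goblet cells and of the deep-crypt secretory cells beside them were mostly lower in propyzamide. Of 9 tested, 6 fell and none rose, with a median log2 fold change of -3.25, where 1.21% of all genes tested fell. The summed level of the 12 listed genes found overlapped, at 2502, 1463 and 1280 CPM in propyzamide and 2410 and 1682 CPM in vehicle. Reg4, a secreted lectin of deep-crypt secretory cells, had 7.14, 7.19 and 2.44 CPM in propyzamide and 428 and 72.6 CPM in vehicle (log2 fold change -5.43 ± 0.68 SE, adjusted p = 0.00413, edgeR quasi-likelihood). Klk1, a kallikrein protease, had 181, 139 and 93.8 CPM in propyzamide and 548 and 431 CPM in vehicle (-1.83 ± 0.38 SE, adjusted p = 0.0364). Best2, a bestrophin channel of goblet cells, had 5.10, 0 and 1.22 CPM in propyzamide and 43.0 and 21.6 CPM in vehicle (-3.74 ± 0.77 SE, adjusted p = 0.0339). In each of these genes every propyzamide library was below both vehicle libraries.

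The gel-forming mucin Muc6, best known from stomach and duodenal glands, fell to 3.06, 0 and 1.83 CPM in propyzamide, against 32.7 and 22.1 CPM in vehicle (log2 fold change -3.93, adjusted p = 0.0216, edgeR quasi-likelihood). The other 2 that fell, named after their values were seen, were Muc5b, a gel-forming mucin, and 9530053A07Rik. Muc5b had 1.02, 0.513 and 0 CPM in propyzamide and 14.9 and 8.51 CPM in vehicle (adjusted p = 0.0416), where unrelated reads would give a gene of its length 7.95 and 6.81 CPM in vehicle. For Muc6 that level was 4.58 and 3.92 CPM in vehicle. In propyzamide replicate 2 the level was 5.05 CPM for Muc5b and 2.91 CPM for Muc6, above the 0.513 and 0 CPM seen. The 3 that did not pass were Dmbt1, Ang4 and Retnlb. Retnlb, an antibacterial peptide of goblet cells, had 66.6, 16.4 and 16.4 CPM in propyzamide and 12.0 and 2.84 CPM in vehicle, with no overlap (log2 fold change 2.13, adjusted p = 0.147). When either vehicle library or propyzamide replicate 3 was left out, the count of 6 came to 1, and that gene was Reg4 each time. Leaving out propyzamide replicate 2 gave 4, and leaving out propyzamide replicate 1 gave 6. The transcript length offset gave 4, limma on log2(TPM + 1) gave 3 of 8 tested, and limma on log2(TPM + 0.1) gave 0, with an adjusted p of 0.0506 for Reg4. With the background of unrelated reads subtracted, 4 of 8 tested were called. Muc5b was not among those tested there, and 9530053A07Rik had an adjusted p of 0.0781 (edgeR quasi-likelihood). Scaling by Muc2 also gave 0.

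Of 11 genes of endoplasmic reticulum folding and granule release, edgeR's quasi-likelihood test called 0 and DESeq2 called 0. An unadjusted p under 0.05 was reached by 3 of the 11, against 18.2% of all genes tested. The median log2 fold change of the 11 was -0.69, and their summed level was 380, 347 and 349 CPM in propyzamide and 530 and 403 CPM in vehicle. Ern2, a stress sensor specific to mucosal epithelia, had 32.6, 10.3 and 2.44 CPM in propyzamide and 57.5 and 49.9 CPM in vehicle (-1.76 ± 0.64 SE, adjusted p = 0.167). Creb3l1, a transcription factor of secretory cells, had 39.1, 5.13 and 23.1 CPM in propyzamide and 52.1 and 53.3 CPM in vehicle (-1.21 ± 0.57 SE, adjusted p = 0.283). Creb3l4, a relative of Creb3l1, had a log2 fold change of -2.18 (adjusted p = 0.144) and Bcas1 one of -1.73 (adjusted p = 0.222). None of these 4, named for their small p, overlapped between the groups. In all, 5 of the 11 were lower in propyzamide without overlap and 6 overlapped, where 20.8% of all genes tested were lower without overlap.

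Among 10 transcription factors and Notch pathway genes of secretory fate, 0 were called by edgeR's quasi-likelihood test, and the median log2 fold change was -0.20. An unadjusted p under 0.05 was reached by 2, against 18.2% of all genes tested, and DESeq2 called 1, against 4.70% of all genes. Notch1, whose signal holds back the secretory fate, had 13.9, 4.11 and 3.04 CPM in propyzamide and 30.6 and 39.7 CPM in vehicle (-2.23 ± 0.56 SE, adjusted p = 0.0570). Its ligand gene Jag1 had 19.4, 18.0 and 15.2 CPM in propyzamide and 8.69 and 3.41 CPM in vehicle (1.497 ± 0.54 SE, adjusted p = 0.166). Elf3 had a log2 fold change of -0.75 (adjusted p = 0.302) and Klf4, a factor of goblet cell differentiation, one of 0.89 (adjusted p = 0.369).

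Among 6 cytokines and receptors known to act on goblet cells, edgeR called 0, 2 had an unadjusted p under 0.05 and DESeq2 called 1. Over all genes tested, 18.2% had such an unadjusted p and DESeq2 called 4.70%. Il18, a cytokine that epithelial cells make and that limits goblet cell maturation in mice, had 33.0, 8.73 and 14.002 CPM in propyzamide and 77.8 and 56.2 CPM in vehicle (-1.82 ± 0.48 SE, adjusted p = 0.0674, edgeR quasi-likelihood). Il10rb, a chain of the interleukin-22 receptor, had a log2 fold change of -0.83 (adjusted p = 0.235), its partner Il22ra1 one of -1.09 (adjusted p = 0.435) and Il4ra one of 0.22 (adjusted p = 0.887). Of 6 membrane-bound mucins, which line the apical surface instead of being released, 1 rose and none fell, where 0.690% of all genes rose. That gene, Muc3a, had 103, 85.7 and 125 CPM in propyzamide and 23.99 and 33.5 CPM in vehicle (1.87 ± 0.38 SE, adjusted p = 0.0319), and it was not called without propyzamide replicate 3 or either vehicle library. Its relative Muc3 had a log2 fold change of 0.30 (adjusted p = 0.83), and reads of the pair could be divided between them. Muc1 had 1.70, 1.03 and 0 CPM in propyzamide and 12.8 and 12.5 CPM in vehicle (-3.57, adjusted p = 0.0508). Muc13 had a log2 fold change of -0.72 (adjusted p = 0.328), and Muc16 reached 115 CPM in propyzamide replicate 2 alone, against 4.76 and 7.31 CPM in the other propyzamide libraries and 19.4 and 16.5 CPM in vehicle.

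Marker sums of several other cell types did not overlap between the groups, though few single markers passed the edgeR test. It called 0 of 13 pan-epithelial, 0 of 6 enteroendocrine, 0 of 10 smooth muscle and 0 of 8 fibroblast markers tested, where 1.90% of all genes were called. Only 1 leukocyte and 1 tuft cell marker passed the filter on low counts, and neither was called. The summed level of 13 pan-epithelial markers was 8585, 7122 and 6345 CPM in propyzamide and 7300 and 6162 CPM in vehicle, so propyzamide replicate 2, lowest in all 10 members, was not the lowest in these markers. Summed absorptive colonocyte markers were higher in every propyzamide library, at 7876, 11462 and 11272 CPM, than in vehicle, at 2266 and 3971 CPM. Of these 10 markers, 2 rose (Slc9a3 and Guca2a), 1 fell (Slc20a1) and 7 did not pass the edgeR test, the 3 being named after their values were seen. Log2 fold changes were positive for 6 of the 10 and negative for 4. Guca2a was not called without vehicle replicate 1, and Slc20a1 was not called without vehicle replicate 2 or propyzamide replicates 2 or 3. Summed enteroendocrine markers, of another secretory cell type, were 64.6, 10.8 and 35.9 CPM in propyzamide and 220 and 116 CPM in vehicle, and they too were lowest in propyzamide replicate 2. Smooth muscle markers summed to 6138, 9704 and 10475 CPM in propyzamide and 550 and 3659 CPM in vehicle, the lowest value being in vehicle replicate 1, where 8 of the 10 members were highest. Fibroblast markers overlapped, at 355, 933 and 1075 CPM in propyzamide and 461 and 337 CPM in vehicle. Leukocyte markers were scarce, at 12.9, 28.2 and 24.4 CPM in propyzamide and 45.5 and 36.9 CPM in vehicle. Tuft cell markers overlapped, at 12.9, 26.2 and 37.1 CPM in propyzamide and 25.2 and 11.9 CPM in vehicle. Of the 7 Paneth cell markers, 4 were at 0 in every library, and their sum was 0, 1.54 and 0 CPM in propyzamide and 27.7 and 6.24 CPM in vehicle. The 1 tested, Lyz1, a lysozyme, had 0, 1.54 and 0 CPM in propyzamide and 24.8 and 5.67 CPM in vehicle (adjusted p = 0.0466, edgeR quasi-likelihood), and it was not called without vehicle replicate 2 or propyzamide replicate 3. With any of the other 3 libraries left out, its counts were under the filter.

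**Figure D5:**
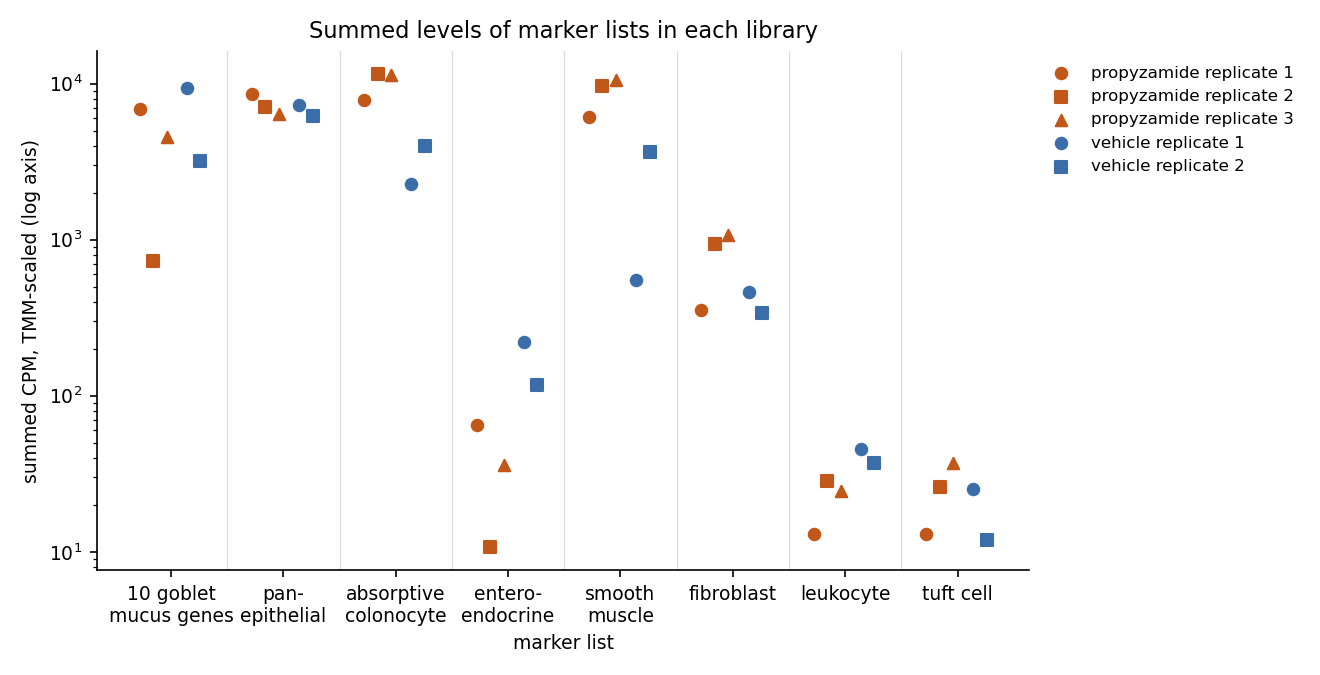
Summed CPM (log axis) of the 10 goblet mucus genes and of marker lists of other cell types in each library. Goblet and enteroendocrine sums are lowest in propyzamide replicate 2, pan-epithelial sums lie between 6162 and 8585 CPM in all libraries, and smooth muscle is lowest in vehicle replicate 1 at 550 CPM.

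Genes that mark position along the gut differed as well. Hoxd13, a homeobox gene of the hindgut's posterior end, had no count in any propyzamide library and 33.5 and 51.6 CPM in vehicle (adjusted p = 0.00217, edgeR quasi-likelihood). Hoxb13 had 23.1, 16.4 and 4.87 CPM in propyzamide and 165 and 179 CPM in vehicle (adjusted p = 0.00605). These 2 genes were chosen after their values were seen. The part of the muscle share, the absorptive share and the position along the colon in the values of the goblet genes was not tested, and with the segment not given, position and treatment cannot be told apart here. All propyzamide libraries carried 1 second index sequence and both vehicle libraries another, with 0 shared. Library indexing and treatment therefore cannot be told apart either.

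Genes outside the list whose profile over the 5 libraries was nearest to the mean profile of the members included AI506816, Tspan13, Fut8, Rab3d and Gstm3. Likeness was the root mean square difference in centred log2(CPM + 1) among 5722 genes with a mean log2 CPM of at least 4. It was 0.237 for AI506816 and 0.369 for Gstm3, against a median of 1.29 over all genes compared and 0.375 to 0.943 for the members themselves. AI506816 had 41.1, 5.65 and 23.7 CPM in propyzamide and 53.8 and 26.1 CPM in vehicle. Fut8, which adds core fucose to N-glycans, had 30.9, 9.75 and 24.96 CPM in propyzamide and 91.0 and 30.1 CPM in vehicle. Rab3d, a small GTPase of secretory granules, had 45.5, 12.3 and 25.6 CPM in propyzamide and 91.0 and 35.7 CPM in vehicle.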

How the data were processed

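Colon RNA of 3 propyzamide-treated and 2 vehicle-treated mice was compared. Each deposited table holds, per the file headers, RSEM's estimated count, TPM and FPKM for every transcript and its percent of the gene. The deposited FPKM and percent columns were not used. RSEM, kallisto and build GRCm38 are named, without versions, per the submitters' processing notes. RSEM divides reads among transcripts, so close copies and overlapping genes may trade reads.

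Estimated counts deposited for 142647 transcripts were added up by gene (55471 genes) and rounded. The test was edgeR 4.0.16 in R 4.3.3, with TMM scaling after filterByExpr, a quasi-likelihood model of the group, and Benjamini-Hochberg adjustment over 12024 genes at a threshold of 0.05. The SE came from the F statistic. CPM used TMM-scaled library sizes, and 1 count was 0.340 to 0.609 CPM. Counting floors (3 counts over a group) were 0.459 CPM in propyzamide and 0.718 CPM in vehicle and cover counting error only. Background from unrelated reads was set by the count density of 1464 genes for olfactory or vomeronasal receptors, times each gene's mean effective length weighted by TPM.

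On simulated counts, 5.15% of calls were false. No libraries were duplicates (chi-square per degree of freedom 16.03 to 48.1). Coordinates and models came from GENCODE M21.

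The members, lists, naming rule and tests were chosen with earlier results of these data known. Named genes were all members, up to 4 of smallest p per goblet list, and the 6 of most similar profile, of which 1 is not reported here. Alternatives were other scalings, filters, DESeq2 1.42.0, limma 3.58.1 on the authors' TPM (log2 of TPM plus 1 or 0.1), a transcript length offset, a replicate block, gene classes removed, background subtracted, a threshold of 0.1 and each library left out. Scaling by Muc2, counting parts of Muc2 or Fcgbp, and epithelial scaling with libraries left out were chosen after seeing the data. Listed symbols with no match were not used.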

Additional observations from a re-analysis of the deposited data

How the results depend on the processing

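Of the 10 members, Tff3, Fcgbp, Clca1, Spdef and Spink4 kept a negative log2 fold change under every alternative run. Clca1 ranged from -3.64 to -1.56. Against 0 members and 229 genes changed, DESeq2 size factors left 0 and 210, and upper-quartile scaling called 1 member (Clca1) and 314 genes. Epithelial scaling called 1 (Clca1) and 386. Without a filter on low counts, 3 (Fcgbp, Clca1, Spink4) and 1323 passed, and at a threshold of 0.1, 1 (Clca1) and 657. Under 10 CPM in 2 libraries, DESeq2, limma on log2(TPM + 1), limma on log2(TPM + 0.1), the length offset, removal of rRNA-like and mitochondrial genes, background subtraction and Muc2 scaling, 0 members passed and 148, 565, 1970, 1763, 146, 362, 112 and 0 genes. Capn9 was below the 10 CPM filter and was not tested without propyzamide replicate 1.

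Leaving out 1 library gave 0 to 3 members and 36 to 499 genes. The 3, Tff3, Clca1 and Spink4, came without propyzamide replicate 1 (499 genes), and 36 genes came without vehicle replicate 1. With epithelial scaling, leaving out propyzamide replicates 1, 2 and 3 in turn gave 1, 1 and 0 members and 345, 385 and 140 genes, and leaving out vehicle replicates 1 and 2 gave 0 and 2 members and 76 and 137 genes. Where a group kept 1 library, that library was assumed to vary like the others. The replicate block called 4 members (Fcgbp, Clca1, Spink4, Atoh1) and 639 genes. Replicate numbers follow accession order and share no stated source, and the deviations of same-numbered libraries correlated at 0.170 and 0.147.

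Muc2 turned positive without the filter (0.071), on its 3′ end models (0.34), without vehicle replicate 1 (0.97) and without propyzamide replicate 2 (0.41). With epithelial scaling it did so without the same libraries (0.70 and 0.31). Zg16 turned negative with limma on log2(TPM + 1) and log2(TPM + 0.1) (both -0.60), with the replicate block (-0.68) and on leaving out vehicle replicate 2 (-0.17), propyzamide replicate 1 (-0.29) or propyzamide replicate 3 (-0.0022). With epithelial scaling it did so without vehicle replicate 2 (-0.25), propyzamide replicate 1 (-0.14) and propyzamide replicate 3 (-0.28). Without vehicle replicate 1, Agr2 (0.13) and Atoh1 (0.53; 0.29 with epithelial scaling) turned positive, and Capn9 did under the length offset (0.16). That offset weights lengths by TPM, and the 274-base Capn9-203 held 3.23 of 5.40 TPM of Capn9 in propyzamide replicate 1 on 1 count. Over the libraries left out in turn, Muc2 ranged from -0.78 to 0.97, Zg16 from -0.29 to 0.89, Agr2 from -2.43 to 0.13 and Atoh1 from -2.36 to 0.53. The cause was not tested.

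The median of all genes moved by over 0.1 under upper-quartile (-0.14) and epithelial scaling (-0.14), no filter (-1.14), limma (-0.53 and -0.73) and Muc2 scaling (0.84). Clca1 was the lowest of the members under these settings, an order that a shift common to all genes cannot change. Under the length offset Spink4 (-2.06) and Atoh1 (-1.62) were lower than Clca1 (-1.56). Depth limits Capn9, Spdef and Atoh1 most, with 25, 87 and 75 counts over propyzamide and 30, 92 and 155 over vehicle.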
